A study of Homo sapiens with 4 samples.

Results

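The 10 genes of the class 3 semaphorin system were SEMA3A, SEMA3B, SEMA3C, SEMA3F, NRP1, NRP2, PLXNA1, PLXNA2, PLXNA3 and PLXND1, followed in RNA from human renal carcinoma cells in which PML had been silenced. They were found by their gene symbols among the 59050 genes of the deposited counts, and all 10 passed the filter on low counts. They were chosen by the difference between silenced and control cells in these counts, so the values of that change are given below as a description, without a test. The RNA came from RCC4, an established clear cell renal cell carcinoma line that lacks a working VHL gene. The cells carried either a doxycycline-inducible hairpin against PML (shPML) or a scrambled hairpin (shCtrl), and every culture received 100 ng/ml doxycycline for 96 h. Each condition had 2 libraries, from 2 experiments with independent lentiviral infections, so that control cells carried a hairpin vector and received doxycycline as well. A single hairpin, shPML#1, was sequenced, in selected populations of transduced cells. In such bulk RNA, fewer cells of a type and less RNA per cell cannot be told apart.

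Class 3 semaphorins are secreted proteins that were first described as guidance cues for growing axons and are also active on endothelial, immune and tumor cells. Most of them bind a neuropilin, which holds the ligand but signals little by itself, and the neuropilin associates with a plexin whose intracellular part acts on small GTPases and the cytoskeleton. SEMA3B and SEMA3F lie on the short arm of chromosome 3, the arm that clear cell renal cell carcinomas most often lose.

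PML was lower in shPML than in shCtrl of the same experiment, with 54.8 against 93.1 CPM in experiment 1 and 87.5 against 136 CPM in experiment 2 (CPM, counts scaled to 1e6 reads after TMM normalization of the library sizes). The fitted log2 difference was -0.69 (standard error 0.30, adjusted p = 0.32, quasi-likelihood test of edgeR, adjusted by Benjamini-Hochberg over all genes), and -0.70 (standard error 0.11, adjusted p = 4.19e-07 in the same test) with the experiment fitted as a block, a term that removes the difference between the 2 experiments. Between 27781193 and 69870617 reads were counted in a library, and all 7 renal carcinoma markers examined were detected in each. The library shPML 2 stood apart. It held 346 counts of PTPRC, 2349 of LYZ and 1177 of CD14, genes of leukocytes and macrophages, against at most 7 counts of any of them in another library. Over 20 markers of myeloid cells the summed level was 326 CPM in shPML 2 and 7.69 to 12.1 CPM in the others, with 15 of the 20 above 10 counts in shPML 2 and 4 to 7 in the others. MPO, ELANE, PRTN3 and CTSG, granule genes of neutrophils and their precursors, were at 0 in all 4 libraries, as was the T cell gene CD3E. AZU1, another granule gene among the 20, had 7, 1, 7 and 0 counts in shCtrl 1, shCtrl 2, shPML 1 and shPML 2. CSF3R, a receptor gene of granulocytes, had 101 counts in shPML 2 and at most 1 in another library. Experiment 1, which does not contain that library, is therefore given beside the values of each of the 10 genes.

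SEMA3C was the most abundant of the 10 genes per length in every library and had the largest difference between the conditions. Its protein is a secreted semaphorin that acts through both neuropilins and PLXND1. The gene lies on the minus strand of chromosome 7 (GRCh38, chr7:80742538-80922359). It was at 96.7 and 79.4 CPM in shCtrl 1 and 2, and at 349 and 333 CPM in shPML 1 and 2. These values rest on 2858 to 25043 counts. Both shPML libraries lay above both shCtrl libraries. The log2 ratio of shPML over shCtrl was 1.85 (95% counting interval 1.81 to 1.90) in experiment 1 and 2.07 (2.01 to 2.13) in experiment 2. These intervals are exact, conditional on the sum of the 2 libraries, and cover counting error only. The fit over all libraries gave a log2 fold change of 1.95 (standard error 0.17), or 1.96 (standard error 0.10) with the experiment as a block, and 1.44% of the 16516 genes tested had a larger positive change in the latter. Leaving out each library in turn gave values from 1.81 to 2.12.

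The start of SEMA3C is shown because this gene carried the largest change, beside those of the 3p ligands SEMA3B and SEMA3F, whose RNA also had higher values in shPML of each experiment. Each window runs from 250 bases before to 50 bases after a RefSeq transcription start (GRCh38.p14), and is written in the direction of transcription. Capitals mark the GC box letters GGGCGG or their reverse complement CCGCCC, and neighbouring matches can share letters. RefSeq lists 2 windows for SEMA3C. The first is chr7:80922340-80922639 on the minus strand, with its RefSeq start 30 bases from the 5′ end that the counts use, and the other is chr7:80919002-80919301, with its start 3308 bases from that end. RefSeq lists 5 windows for SEMA3B, with 0 to 4 matches, and 3 for SEMA3F, with 0 to 12. For each gene the window whose start lies nearest to the 5′ end in the counts is printed, chr3:50267402-50267701 for SEMA3B and chr3:50154808-50155107 for SEMA3F, both on the plus strand.

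SEMA3C upstream start: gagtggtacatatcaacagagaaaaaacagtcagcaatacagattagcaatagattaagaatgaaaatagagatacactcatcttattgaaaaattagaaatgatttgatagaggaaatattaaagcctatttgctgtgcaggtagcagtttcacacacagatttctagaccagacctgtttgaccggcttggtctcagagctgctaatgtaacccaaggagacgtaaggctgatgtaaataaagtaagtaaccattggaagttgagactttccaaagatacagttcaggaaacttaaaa
SEMA3C downstream start: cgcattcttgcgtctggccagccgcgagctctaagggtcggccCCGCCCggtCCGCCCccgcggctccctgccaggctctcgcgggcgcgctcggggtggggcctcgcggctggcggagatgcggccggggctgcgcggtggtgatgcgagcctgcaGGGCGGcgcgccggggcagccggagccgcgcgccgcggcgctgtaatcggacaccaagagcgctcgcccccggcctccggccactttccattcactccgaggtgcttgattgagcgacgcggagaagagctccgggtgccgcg
SEMA3B: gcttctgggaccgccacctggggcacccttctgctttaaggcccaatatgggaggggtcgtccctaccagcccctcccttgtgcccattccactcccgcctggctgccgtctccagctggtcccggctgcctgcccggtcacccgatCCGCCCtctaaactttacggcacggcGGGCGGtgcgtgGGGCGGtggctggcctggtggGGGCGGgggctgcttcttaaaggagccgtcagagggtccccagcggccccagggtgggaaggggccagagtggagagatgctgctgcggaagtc
SEMA3F: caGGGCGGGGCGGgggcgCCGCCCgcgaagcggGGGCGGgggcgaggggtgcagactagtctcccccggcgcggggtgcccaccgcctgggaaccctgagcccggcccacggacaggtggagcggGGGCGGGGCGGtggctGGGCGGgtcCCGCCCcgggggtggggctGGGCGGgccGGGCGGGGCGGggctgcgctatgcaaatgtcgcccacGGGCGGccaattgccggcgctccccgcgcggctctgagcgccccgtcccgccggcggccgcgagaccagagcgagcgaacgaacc

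The upstream window of SEMA3C had 36.0% G and C and no match to the GC box letters, whereas the downstream window had 75.7% and 3 matches. The SEMA3B window had 68.7% G and C with 4 matches, and the SEMA3F window 81.3% with 12. Among 35116 RefSeq windows of this length, 45.0% held the letters on either strand. Windows were found for 8 of the 10 genes, and each of these 8 had the letters in at least 1 window, in 11 of 15 windows in all. The 45.0% is a share of windows and cannot be set beside a count of genes, some of which have several windows. The share of all genes with the letters in at least 1 window was not computed. Whether the letters are more frequent in these genes was not tested. The letters ACGTG, 1 form of the core of the element that hypoxia-inducible factors bind, were searched on both strands as well. The letters ACGTG were absent from the 4 windows printed, present in 4 other windows, all of SEMA3B, and present in 21.4% of all windows. The other form of the core, GCGTG, was not searched, and the printed SEMA3B window holds it. Neither match was tested as a binding site. SEMA3A and NRP1 had no window in the table. The gene counts do not separate transcripts from the 2 starts of SEMA3C.

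SEMA3A, the founding repulsive cue of the class and a ligand of NRP1, lies on the same chromosome (chr7:83955777-84195445, minus strand). It was at 36.7 and 29.0 CPM in shCtrl 1 and 2 and at 70.4 and 71.5 CPM in shPML 1 and 2. The shPML libraries differed by far less from each other than from either shCtrl library. The log2 ratio was 0.94 (counting interval 0.87 to 1.02) in experiment 1 and 1.30 (1.19 to 1.41) in experiment 2, and the fitted log2 fold change was 1.11 (standard error 0.18). Leaving out 1 library gave 0.94 to 1.30.

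SEMA3B (chr3:50267608-50277179, plus strand), a ligand studied as a tumor suppressor of 3p21.31, had the strongest split by experiment among the ligands. It was at 6.04 and 12.5 CPM in shCtrl 1 and 2, and at 9.62 and 20.3 CPM in shPML 1 and 2. Within each experiment shPML was higher, yet shPML 1 lay below shCtrl 2, so the conditions overlapped. The log2 ratio was 0.67 (counting interval 0.48 to 0.87) in experiment 1 and 0.71 (0.52 to 0.89) in experiment 2. The log2 fold change of 0.69 had a standard error of 0.49 without the block and 0.16 with it. Without shPML 2 the fit with no block gave 0.06, and without shCtrl 2 it gave 1.30.

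SEMA3F (chr3:50155091-50189075, plus strand), a ligand that binds NRP2 in preference to NRP1, was at 9.97 and 14.4 CPM in shCtrl 1 and 2 and at 14.8 and 24.1 CPM in shPML 1 and 2. The conditions did not overlap, although shCtrl 2 and shPML 1 were nearly level. Its log2 ratio was 0.57 (counting interval 0.42 to 0.72) in experiment 1 and 0.74 (0.57 to 0.91) in experiment 2. The fitted log2 fold change was 0.67 (standard error 0.32) without the block, 0.28 when shPML 2 was left out and 0.98 when shPML 1 was.

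Of the remaining ligands of the class, SEMA3D had 0 counts in every library, which allows up to 3 counts in each, or 0.109 CPM in the shallowest. SEMA3G had at most 1 count, and SEMA3E had 16, 3, 12 and 0 counts in shCtrl 1, shCtrl 2, shPML 1 and shPML 2. On the TPM scale (transcripts per 1e6, counts divided by exonic length before scaling), which allows levels of different genes to be compared, all class 3 ligands together were at 76.0 and 71.5 TPM in shCtrl 1 and 2 and at 230 and 238 TPM in shPML 1 and 2. SEMA3C made up 68.7% and 59.3% of this sum in shCtrl 1 and 2, and 82.1% and 76.1% in shPML 1 and 2. The SEMA3A share was 15.8% and 13.2% in shCtrl and 10.0% and 9.92% in shPML, although its own level was higher there. SEMA3B and SEMA3F also took smaller shares in shPML than in shCtrl of the same experiment. The ligand pool of each shPML library thus held more SEMA3C in proportion than that of either shCtrl library.

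The neuropilins had smaller differences of nearly equal size. NRP1 (chr10:33177492-33336262, minus strand), the co-receptor of SEMA3A and also of VEGF, was at 105 and 120 CPM in shCtrl 1 and 2 and at 169 and 172 CPM in shPML 1 and 2. NRP2 (chr2:205682500-205798133, plus strand), the co-receptor of SEMA3F, was at 64.8 and 68.8 CPM in shCtrl 1 and 2 and at 98.3 and 104 CPM in shPML 1 and 2. For both genes the conditions did not overlap and the libraries of a condition lay close together. The log2 ratio of NRP1 was 0.68 (counting interval 0.64 to 0.73) in experiment 1 and 0.52 (0.46 to 0.58) in experiment 2. That of NRP2 was 0.60 in both experiments, with intervals of 0.54 to 0.66 and 0.52 to 0.68. Both fitted log2 fold changes were 0.60 (standard error 0.15 each), with ranges of 0.53 to 0.69 for NRP1 and 0.56 to 0.64 for NRP2 when 1 library was left out. With ratios this alike, NRP1 held 60.6% to 62.3% of the summed neuropilin TPM in all 4 libraries.

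**Figure D1:**
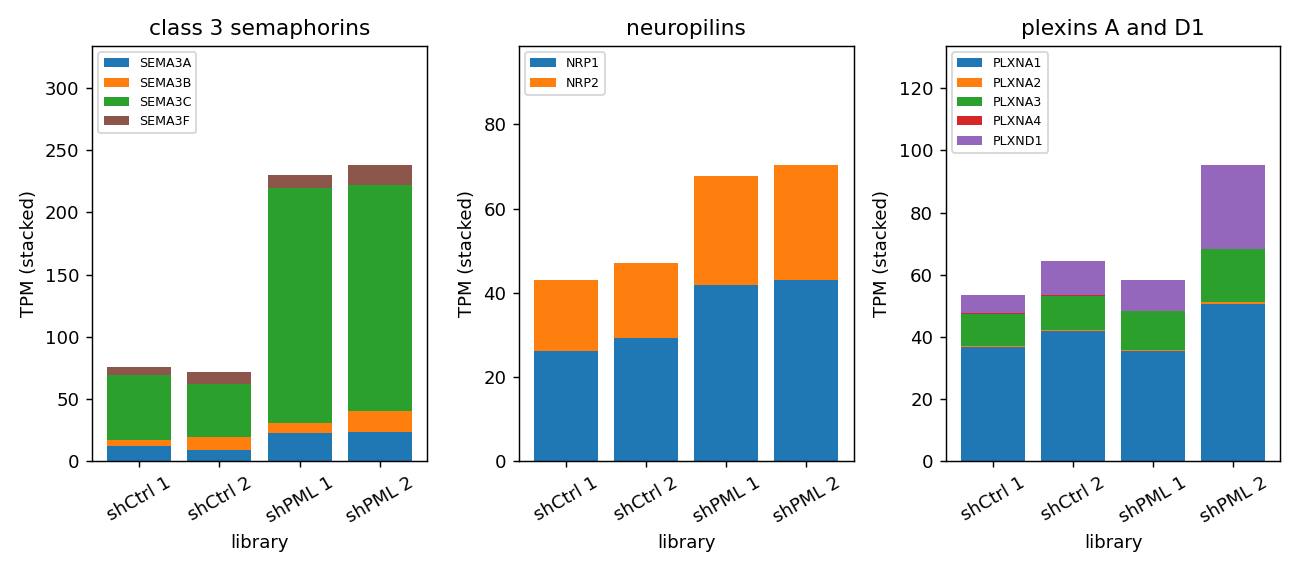
Stacked TPM of the class 3 ligands, of both neuropilins and of the plexins of the A and D families in each library, with 1 color for each gene. Ligand sums were 76.0 and 71.5 TPM in shCtrl and 230 and 238 TPM in shPML, mostly SEMA3C, while the plexin sum of shPML 1, 58.4 TPM, lay between those of the shCtrl libraries.

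The plexins, the signal-transducing receptors, had ratios that varied from gene to gene and between the experiments. PLXNA1 (chr3:126988594-127037392, plus strand), a partner of NRP1, was at 124 and 143 CPM in shCtrl 1 and 2 and at 120 and 169 CPM in shPML 1 and 2, so shPML 1 was the lowest and shPML 2 the highest library. Its log2 ratio was -0.05 (counting interval -0.09 to -0.0012) in experiment 1 and 0.24 (0.19 to 0.30) in experiment 2, and the fitted log2 fold change was 0.12 (standard error 0.22). The value turned to -0.15 without shPML 2. PLXNA2 (chr1:208022242-208244384, minus strand), its close relative, was the least abundant of the 10, with 81 and 92 counts in shCtrl 1 and 2 and 87 and 94 counts in shPML 1 and 2. Its log2 ratio was -0.30 (-0.76 to 0.15) in experiment 1 and 0.42 (-0.01 to 0.85) in experiment 2. Both intervals include 0, so no difference between the conditions was detectable at this depth. The fitted value of 0.18 (standard error 0.61) turned to -0.73 without shPML 2 and to -0.14 without shCtrl 1.

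PLXNA3 (chrX:154458281-154477779, plus strand), a receptor for SEMA3F with NRP2, was at 42.3 and 44.5 CPM in shCtrl 1 and 2 and at 51.3 and 68.5 CPM in shPML 1 and 2. The conditions did not overlap. The log2 ratio was 0.28 (counting interval 0.20 to 0.36) in experiment 1 and 0.62 (0.53 to 0.72) in experiment 2, and the fitted log2 fold change was 0.47 (standard error 0.19), or 0.24 without shPML 2. It thus lay just under the fold threshold of 0.5 on the log2 scale that is used for calls below.

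PLXND1 (chr3:129555175-129606818, minus strand), the plexin through which SEMA3C acts on vessels and the developing heart, was at 15.4 and 29.7 CPM in shCtrl 1 and 2 and at 26.1 and 70.9 CPM in shPML 1 and 2. Within each experiment shPML was higher, but shPML 1 lay below shCtrl 2. Its log2 ratio was 0.76 (counting interval 0.64 to 0.88) in experiment 1 and 1.26 (1.15 to 1.37) in experiment 2. The fitted log2 fold change was 1.10 (standard error 0.54) without the block and 1.01 (standard error 0.13) with it. Left-out libraries moved the value without the block from 0.21 (no shPML 2) to 1.65 (no shPML 1). Of the summed TPM of the A and D plexins, PLXND1 took 10.9% and 17.2% in shCtrl 1 and 2 and 16.9% and 28.4% in shPML 1 and 2. PLXNA1 took the largest share in each library, 68.6% and 64.8% in shCtrl and 60.8% and 52.9% in shPML. The highest PLXND1 value thus came from the library that also held the myeloid transcripts, and their part in it was not tested. In experiment 1, without that library, PLXND1 was 0.76 higher on the log2 scale.

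**Figure D2:**
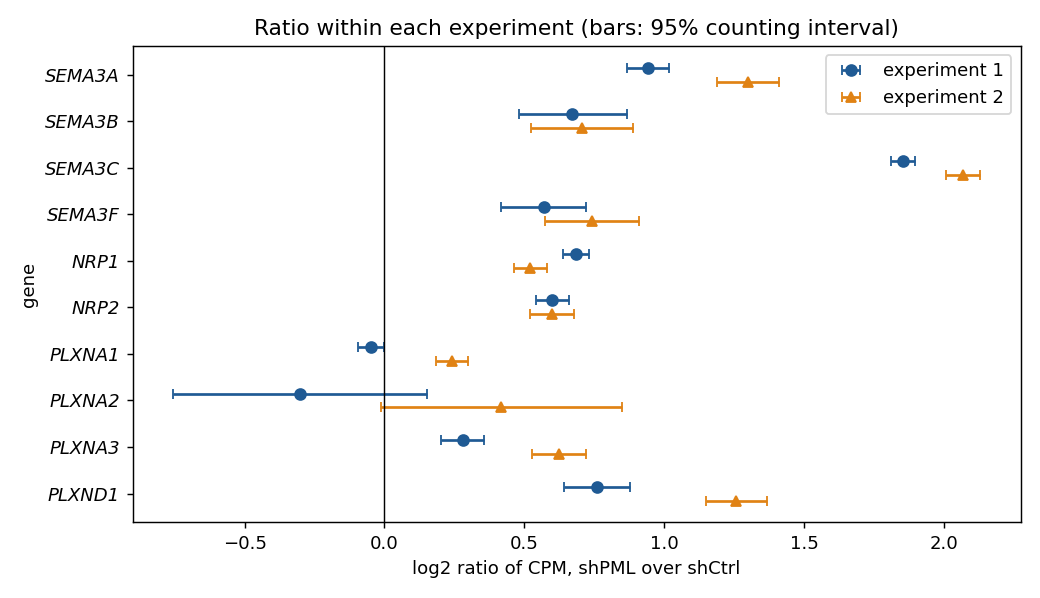
Log2 ratio of CPM, shPML over shCtrl, within each experiment, with bars for the 95% counting interval. In 8 genes the ratio was above 0 in both experiments, PLXNA1 and PLXNA2 changed sign between them, and SEMA3C had the largest ratios, 1.85 and 2.07.

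Set against all genes, the members divided into those with and without a difference in each experiment. In 8 of the 10, shPML was higher in both experiments, as it was in 36.9% of all genes tested. Both shPML libraries exceeded both shCtrl libraries in 6 of the 10, namely SEMA3A, SEMA3C, SEMA3F, NRP1, NRP2 and PLXNA3, against 23.0% of all genes tested. Calls required an adjusted p below 0.05 together with a change of more than 0.5 on the log2 scale. Without the block, 1 member, SEMA3C, was called higher and 0 lower, where 0.0787% of all genes were called higher, 0.333% lower and 0.412% either way. With the block, 7 members were called higher and 0 lower, where 8.57% of all genes were called higher, 10.5% lower and 19.1% either way, and the 3 that were not called were PLXNA1, PLXNA2 and PLXNA3. Nothing is read from these counts, since the members were chosen with this contrast known. The median log2 fold change with the block was 0.63 over the members and 0.00 over all genes.

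The difference between experiments was not used in choosing the genes, and was tested with the condition as a covariate. Of the 10 genes, 4 were called higher in experiment 2 than in experiment 1 and 0 lower, where 8.93% of all genes were called higher, 4.53% lower and 13.5% either way. PLXND1 was higher in experiment 2 by 1.20 on the log2 scale (standard error 0.13, adjusted p = 2.44e-11, edgeR's quasi-likelihood test). The difference was 1.06 for SEMA3B (standard error 0.16, adjusted p = 4.7e-07), 0.62 for SEMA3F (standard error 0.15, adjusted p = 0.000769) and 1.13 for PLXNA2 (standard error 0.39, adjusted p = 0.0257), from the same test. PLXNA1 also passed the test (adjusted p = 0.00878 in edgeR) but its difference of 0.35 was under the fold threshold. No difference between the experiments passed the test for SEMA3A, SEMA3C, NRP1, NRP2 or PLXNA3, whose values lay between -0.17 and 0.25 with adjusted p-values of 0.13 or more in edgeR's test.

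The difference between the experiments was also taken within each condition. From shCtrl 1 to shCtrl 2, SEMA3B was higher by 1.05, PLXND1 by 0.95, PLXNA2 by 0.77 and SEMA3F by 0.53 on the log2 scale. From shPML 1 to shPML 2 these differences were 1.08, 1.44, 1.49 and 0.70. The 20 myeloid markers summed to 9.40 and 7.69 CPM in shCtrl 1 and 2 and to 12.1 and 326 CPM in shPML 1 and 2, and their part in either difference was not tested. The excess in the shPML pair was largest for PLXNA2 and PLXND1 and near 0 for SEMA3B. For PLXNA2, on 81 to 94 counts in a library, the counting intervals of the ratios of both experiments overlapped, whereas those of PLXND1 did not. How a gene's variance divided between condition and experiment differed across the system. Condition took 98.9% of the variance of log2 levels for SEMA3C, 98.1% for NRP2, 95.6% for SEMA3A and 95.5% for NRP1, and the experiment took 90.5% for PLXNA2, 79.8% for PLXNA1, 70.4% for SEMA3B and 56.9% for PLXND1. With the squared deviations of all genes tested pooled into 1 sum, these parts were 41.8% for condition and 44.9% for experiment, which is not the value of a typical gene. The condition parts of the members come from the contrast by which they were chosen. SEMA3F lay in between, with 52.5% for condition and 46.6% for experiment.

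**Figure D3:**
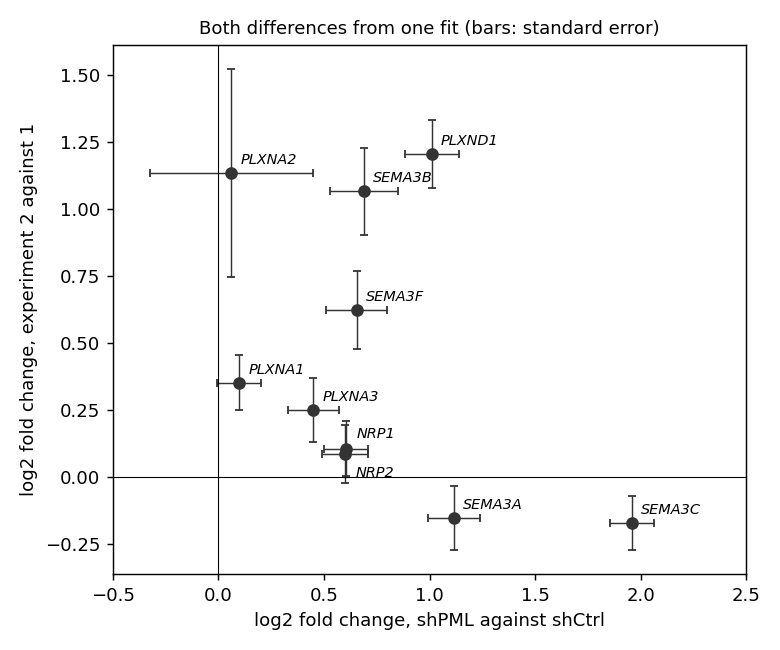
Log2 fold change of shPML against shCtrl (horizontal) and of experiment 2 against experiment 1 (vertical) for each gene, both from the fit that holds both terms, with bars for the standard error. SEMA3C, SEMA3A, NRP1 and NRP2 lie to the right and near 0 on the vertical axis, whereas PLXND1 (1.20), PLXNA2 (1.13) and SEMA3B (1.06) lie high on it.

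The order of levels per length was given by TPM as mean ± SD (n = 2 libraries). In shCtrl it ran from SEMA3C (47.3 ± 6.95 TPM) through PLXNA1 (39.2 ± 3.61), NRP1 (27.7 ± 2.28) and NRP2 (17.3 ± 0.581) to SEMA3A, PLXNA3, PLXND1, SEMA3F and SEMA3B, whose means lay between 7.44 and 10.7 TPM with neighbours overlapping. PLXNA2 was last at 0.469 ± 0.170 TPM. In shPML, SEMA3C was at 185 ± 5.13 TPM, and PLXNA1 (43.0 ± 10.6) and NRP1 (42.4 ± 0.732) overlapped. NRP2 was at 26.6 ± 1.25 TPM and SEMA3A at 23.4 ± 0.385 TPM. By its mean, PLXND1 stood above PLXNA3, SEMA3F and SEMA3B in shPML (means of 18.5, 14.9, 13.4 and 12.2 TPM), with the ranges of neighbours overlapping from SEMA3A down to SEMA3B. In shPML 1, however, PLXND1 was at 9.86 TPM, below PLXNA3 (12.7 TPM) and SEMA3F (10.1 TPM). Its value in shPML 2, the library with the myeloid transcripts, was 27.1 TPM. PLXNA2 was again last, at 0.543 ± 0.368 TPM.

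Exons of NRP1, NRP2, SEMA3B and PLXNA3 overlap those of other genes. The largest overlap was 561 bases of NRP1, 5.19% of its exonic length, with AL121748.1 on the other strand, which had at most 27 counts in a library.

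The other genes of the pathway were taken as a list of 79 genes in 7 groups, of which 63 were tested. Without the block, 0 of them were called (18 had an unadjusted p under 0.05 in edgeR's test, and DESeq2 without a block called 11). With the block, 11 were called higher and 10 lower, where 8.57% of all genes were called higher, 10.5% lower and 19.1% either way, and the median over the 63 genes was 0.15 on the log2 scale. In experiment 1 alone, 9 of the 11 and all 10 had the same direction with a counting interval beyond 0. The 2 that did not, SEMA4A and SEMA6B, are described below. All adjusted p-values in the following account are from edgeR's quasi-likelihood test with the block. It is an alternative to the main fit without the block, in which no gene of the list was called. With 2 libraries a condition, the fit with the block leaves few residual degrees of freedom to estimate the spread.

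Membrane-bound and other semaphorins moved both ways. Of 13 genes of other semaphorin classes 12 were tested, and 3 were called higher and 3 lower, where 8.57% and 10.5% of all genes were. SEMA7A, a GPI-anchored semaphorin that binds PLXNC1 and integrins, was at 90.0 and 114 CPM in shCtrl and at 32.0 and 35.7 CPM in shPML, a log2 fold change of -1.58 (adjusted p = 2.22e-17). SEMA5A, a transmembrane semaphorin with thrombospondin repeats, fell from 9.29 and 8.83 to 4.88 and 4.32 CPM (-0.98, adjusted p = 0.000236), and SEMA6A, a ligand of A plexins that needs no neuropilin, fell by 0.54 on the log2 scale (adjusted p = 2.61e-05). SEMA4D, the ligand of PLXNB1, rose from 56.9 and 67.3 to 86.3 and 104 CPM (0.61, adjusted p = 8.81e-06). For these 4 genes the conditions did not overlap and the ratios of the 2 experiments had the same sign.

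SEMA4A and SEMA6B were called higher with the block, but rested on a single library. SEMA4A, a semaphorin expressed by immune cells, was at 0.462, 0.444 and 0.376 CPM in shCtrl 1, shCtrl 2 and shPML 1, and at 9.00 CPM in shPML 2. Its log2 ratio was -0.29 in experiment 1 and 4.34 in experiment 2. SEMA6B was at 6.91, 14.0, 5.80 and 33.6 CPM in the same order, with ratios of -0.25 and 1.27. Both high values came from the library with the myeloid transcripts, whose part in them was not tested.

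Of the other plexins, 3 of 4 were called higher, where 8.57% of all genes were. PLXNB1, the receptor of SEMA4D, rose from 63.3 and 61.7 to 87.3 and 103 CPM (0.60, adjusted p = 1.57e-05), and PLXNB3, a receptor of SEMA5A, had a log2 fold change of 0.63 (adjusted p = 0.000115) with overlapping conditions. PLXNB3 shares 1252 exonic bases with SRPK3, which had at most 18 counts. PLXNC1, the receptor of SEMA7A and a gene also active in leukocytes, was at 0.148, 0.361 and 0.669 CPM in shCtrl 1, shCtrl 2 and shPML 1 and at 3.59 CPM in shPML 2 (2.79, adjusted p = 0.000128). These PLXNC1 values rest on 8 to 99 counts, and the log2 ratio was 2.18 in experiment 1. PLXNB2, the most abundant plexin, passed edgeR's test with the block (adjusted p = 0.0499). It was not called, since its change of 0.24 was under the fold threshold. PLXNA4, the remaining A plexin, was at 1.16 and 1.11 CPM in shCtrl and at 0.293 and 0.0726 CPM in shPML, from 63, 40, 21 and 2 counts, a log2 fold change of -2.62 (adjusted p = 0.00222). It was thus the sole A plexin called in either direction between the conditions.

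**Figure D4:**
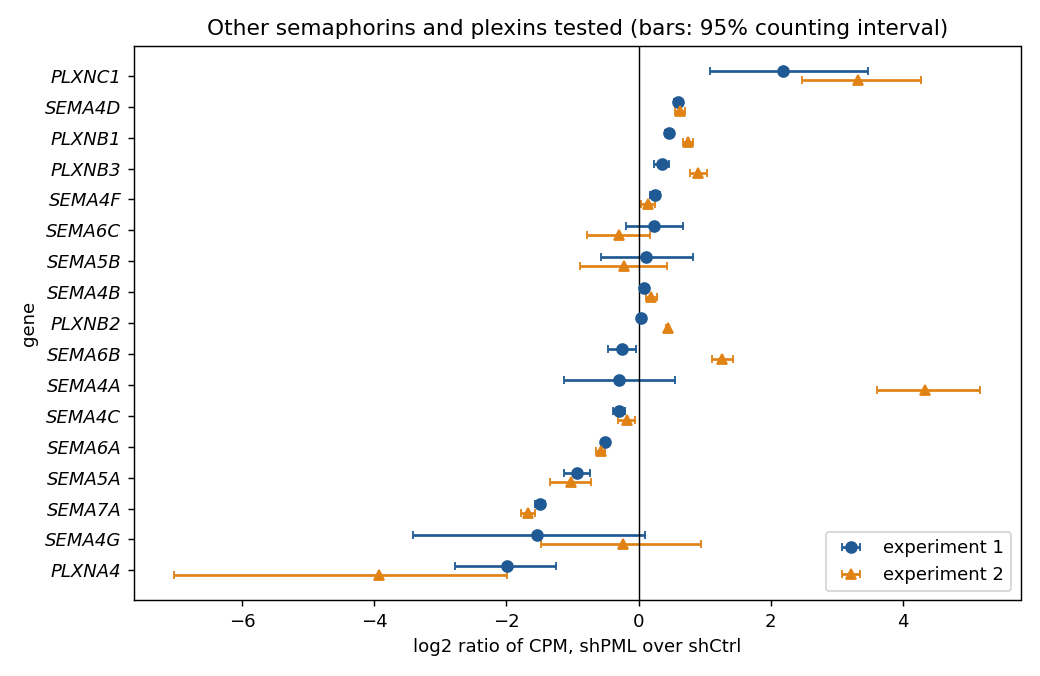
Log2 ratio of CPM, shPML over shCtrl, within each experiment for the tested semaphorins of other classes and the other plexins, with bars for the 95% counting interval. SEMA7A lies at -1.49 and -1.67, while SEMA4A lies at -0.29 in experiment 1 and 4.34 in experiment 2.

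The proteases that cut semaphorins, the co-receptors and the intracellular effectors gave further calls with the block, where 8.57% of all genes were called higher and 10.5% lower. PCSK6, a furin-like protease, and ADAMTS1, a secreted metalloprotease, were called higher among 6 processing genes tested (0.74 and 0.68, adjusted p = 0.0187 and 1.31e-07), whereas FURIN, the convertase that cuts class 3 semaphorins, had a log2 fold change of -0.23 (adjusted p = 0.0902). Of 6 co-receptors tested, MET, the receptor of hepatocyte growth factor, rose from 483 and 444 to 803 and 722 CPM (0.72, adjusted p = 4.71e-09). L1CAM, an adhesion molecule that binds NRP1 in the SEMA3A receptor, fell from 1017 and 1021 to 557 and 698 CPM (-0.71, adjusted p = 8.02e-09). Of 31 effectors tested, FYN was called higher and 5 were lower. RRAS, a GTPase inactivated by plexins, fell by 1.40 on the log2 scale (adjusted p = 8.53e-15), RAC1 by 1.35 (1.71e-17) and RHOA by 1.02 (2.79e-13), and PAK1, a kinase activated by RAC1, fell by 0.98 (8.99e-10). CDK5R1, an activator of the kinase CDK5, was also lower. FYN, a SRC family kinase, was at 0.757 and 1.50 CPM in shCtrl 1 and 2 and at 1.88 and 5.74 CPM in shPML 1 and 2 (1.63, adjusted p = 0.00055). Its highest value was again in the library with the myeloid transcripts, and the log2 ratio in experiment 1 was 1.31. Of the VEGF group, VEGFB rose by 0.71 on the log2 scale (adjusted p = 1.71e-06), and the VEGF receptors FLT1 and KDR were at most at 0.254 CPM in any library.

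The neighbours of SEMA3B and SEMA3F were examined because both genes lie at 3p21.31. Of 18 other genes of this interval 14 were tested, and without the block 0 were called (5 at an unadjusted p under 0.05 in edgeR's test, and 3 called by DESeq2). With the block 3 were higher and 3 lower, where 8.57% of all genes were called higher and 10.5% lower, and the median of the 14 was 0.03 on the log2 scale. HYAL3 (0.96, adjusted p = 1.41e-07), a member of the hyaluronidase family, and GNAI2 (0.56, adjusted p = 3.53e-06), a G protein subunit, were higher, as was the weakly expressed ZMYND10. HYAL2, the other hyaluronidase named (-1.04, adjusted p = 1.4e-10), IFRD2 (-0.92, adjusted p = 2.3e-09) and RASSF1, a tumor suppressor gene (-0.67, adjusted p = 1.61e-05), were lower. The genes beside SEMA3B and SEMA3F differed in direction. Both semaphorins had higher values in shPML of each experiment, but they were chosen by this contrast. A cause shared by the interval was not tested. HYAL3 and IFRD2 share 43 exonic bases, and HYAL3 shares 232 with NAA80.

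Other guidance families were set beside the semaphorin system. Of 40 Slit-Robo, netrin and ephrin-Eph genes 25 were tested, and without the block 0 were called (7 at an unadjusted p under 0.05 in edgeR's test, and 1 called by DESeq2). With the block 0 were higher and 8 lower, where 8.57% of all genes were called higher and 10.5% lower, and the median log2 fold change was -0.49. All 8 were also lower in experiment 1 alone. EPHA4, an Eph receptor, fell from 21.1 and 16.3 to 8.34 and 8.02 CPM (-1.19, adjusted p = 8.03e-09). The other lower genes of this family were EPHA2 (-0.70, adjusted p = 1.23e-07), EFNB2 and EFNA4. NTN1, NTNG1 and NTN4 of the netrins were lower by 0.86, 0.80 and 0.54, as was the Slit receptor ROBO4 by 0.62. The median of 0.63 over the members in the same fit cannot be compared with this value, since the members were chosen by this contrast. The lists were written with earlier results known, and no test compared them.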

How the data were processed

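The 4 RNA libraries of RCC4 cells, 2 shCtrl and 2 shPML, were grouped by their labels. The authors deposited raw counts, whole numbers of reads per gene without normalization, made by trimming with Trimmomatic 0.39, alignment with STAR to GRCh38 and counting with featureCounts 1.6.4 on Gencode genes, as the methods and the submitters' processing notes state. The Gencode release and the strand setting of the counting are not given in the sources used here, so how reads of overlapping genes were assigned is not known. A later note in the record corrects labels that were exchanged between 2 samples, and groups follow the labels after that correction. The count columns were matched to these labels by name, and whether the column names follow the correction is not known. The columns without a number were taken as replicate 1. The replicate numbers were read as the 2 experiments of the methods, and deviations of same-numbered libraries from their group means had a correlation of 0.546 across genes. Nothing says that the libraries of a condition differ by more than the infection, so p-values measure the spread among these libraries.

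Counts were filtered with filterByExpr (16516 of 59050 genes kept), scaled by TMM and analysed in R 4.3.3 with edgeR 4.0.16 (quasi-likelihood test), with Benjamini-Hochberg adjustment over all genes tested, without a block, since the methods name DESeq2 and mention no block. A fit with the experiment as a block, DESeq2 1.42.0, RLE normalization, other filters and left-out libraries were alternatives, and the scripts were tested on simulated data. CPM used the TMM-scaled library size. TPM was computed here from the counts and the exonic length in the deposited table. Promoter windows came from RefSeq on GRCh38.p14, and motifs were searched with Python 3.11.15. All members are described. From the pathway, guidance and neighbour lists, genes called with or without the block were named, up to 4 a list by the size of the change. Other semaphorins and plexins were named where a level or count is described, and markers are given by count and range. PAK1, CDK5R1, FURIN, FLT1, KDR, RASSF1, GNAI2, CACNA2D1 and PCLO were named beyond this rule, after their values were seen. The members, the 19 gene lists and the tests were chosen with earlier results of these data known, and the 20 myeloid markers after the counts were seen. The endothelial list (8 genes) summed to 2.95 to 5.21 CPM in the first 3 libraries and 11.4 CPM in shPML 2. Its members differed. CDH5 had at most 2 counts, whereas PECAM1 had 113 counts in shPML 2 and at most 3 in another library. ESAM had 113 to 354 counts in each library and was called higher in shPML with the block, by 0.97 on the log2 scale. The neuronal and glial list (5 genes) summed to 3.33 to 3.89 CPM in all libraries.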

Additional observations from a re-analysis of the deposited data

Results flagged for a closer look

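In 2 members and 4 other semaphorins the ratio of shPML over shCtrl had opposite signs in the 2 experiments, and the difference between the experiments was not tested, since each experiment holds 1 library of a condition. The log2 ratio of PLXNA1 was -0.0475 in experiment 1 and 0.24 in experiment 2, and that of PLXNA2 was -0.30 and 0.42, on 81 to 94 counts in a library. SEMA4A had ratios of -0.29 and 4.34 and SEMA6B of -0.25 and 1.27, both with their highest level in shPML 2, the library with myeloid transcripts. SEMA5B had ratios of 0.12 and -0.23 and SEMA6C of 0.23 and -0.30, each on 32 to 120 counts in a library. Over all genes with counts in every library, the median absolute difference between the ratios of the experiments was 0.24, and the 95th percentile was 1.85. The difference was 0.29 for PLXNA1 and 0.72 for PLXNA2.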

How the results depend on the processing

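The number of calls between shPML and shCtrl depended on how the experiments were treated. Without the replicate block, edgeR called 68 of all genes tested, with a smallest adjusted p of 0.0484, and with the replicate block 3150. For DESeq2 these counts were 1390 and 2295. RLE normalization gave 0 (smallest adjusted p 0.0501, 2967 genes at an unadjusted p under 0.05), keeping genes of low counts 1837, requiring 10 or more counts in each library 197, and leaving out 1 library 0 to 248. In the same order of block, DESeq2, DESeq2 with the block, the members called went from 1 (SEMA3C) to 7, 4 and 7. RLE normalization gave 0 members (4 at an unadjusted p under 0.05) and no filter 3, and left-out libraries 0 to 1. For pathway genes the count of 0 became 21, 11 and 17, with 15 without a filter, 3 at 10 counts in every library and 0 to 1 with a library left out. For the guidance genes it became 8, 1 and 4, with 3 without a filter, and for the neighbours of SEMA3B and SEMA3F 6, 3 and 5, with 4 without a filter. PML passed the test with the block (-0.70), with DESeq2 and the block (-0.69) and without a filter (-0.68). With libraries left out, 0 genes were called unless shPML 1 was the one removed, which gave 248 (1410 to 2092 genes had an unadjusted p under 0.05 in the others), and the lone library of a condition was assumed to vary like the others.

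The sign of the change held in all 11 fits for 8 members, but PLXNA1 turned to -0.15 without shPML 2. PLXNA2 turned to -0.73 without shPML 2 and to -0.14 without shCtrl 1. Between the experiments, 2224 genes were called with the condition in the fit, 0 without it (smallest adjusted p 0.161, 1818 genes at an unadjusted p under 0.05), 1401 by DESeq2 and 3913 without a fold threshold, and 4 members became 0 without the condition term (3 at an unadjusted p under 0.05). Leaving out a library in that fit was not run, as it leaves no residual degrees of freedom. Depth limits PLXNA2, SEMA3E, SEMA3G and PLXNA4 most.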

Other observations

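Between SEMA3C and SEMA3D on chromosome 7 (GRCh38, chr7:80742538-85186855) the counts hold 29 genes that are not members, among them CACNA2D1 and PCLO, the 2 that passed the filter. Neither was called between shPML and shCtrl with the experiment as a block, but both had few counts. CACNA2D1 had 1 to 19 counts in a library, with log2 ratios of 3.68 and -2.28 in experiments 1 and 2. PCLO had 8 to 34 counts, with ratios of -0.02 and 2.03. Whether the span as a whole differed was not tested. SEMA3C, at 1 end of it, and SEMA3A, within it, were the 2 ligands with the largest ratios in both experiments, and were chosen by this contrast. SEMA3D, at the other end, had 0 counts in every library, and SEMA3E, within the span, had 0 to 16.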
